A study of Mus musculus with 12 samples.

Results

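The genes of cholesterol and fatty acid synthesis were followed in MLL-AF9 leukemia cells that had grown in mice with different degrees of immune deficiency. The set holds 30 genes of 55401 in the deposited table and was chosen by name, as the sterol and lipid synthesis genes controlled by sterol regulatory element-binding proteins (SREBPs), with no measured value in the rule. All 30 were found in the table, and 29 had a mean of at least 1 TPM (a share of all transcripts in a library, scaled for gene length) over the 12 libraries and entered the tests among 15026 genes. Scd1 did not: it was listed at 0 in all 4 Rag2-/- libraries, in 3 NSG libraries and in 2 WT libraries, and its highest value was 0.0432 TPM.

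All 12 libraries came from 1 line of GFP-positive acute myeloid leukemia (AML) cells, made by transducing mouse bone marrow progenitors with the MLL-AF9 fusion and kept by repeated passage through mice, and sorted from the bone marrow of moribund hosts. The hosts were young adult, non-irradiated females: 4 WT mice (C57BL/6, with an intact immune system), 4 Rag2-/- mice (C57BL/6 without the Rag2 recombinase, hence without mature T and B cells but with NK cells) and 4 NSG mice (which also lack NK cells and carry further immune defects on another strain background). The labels call the 4 libraries of each host biological replicates. The leukemia line is the same in all groups, so p-values describe differences between hosts for this line, and in NSG mice the strain and the lack of immune cells cannot be told apart. TPM carry no read totals, so the depth of each library is unknown.

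Cholesterol is built from acetyl-CoA through the mevalonate pathway, squalene and lanosterol, and fatty acids from acetyl-CoA by Acly, Acaca and Fasn. When sterol in the endoplasmic reticulum is low, the escort protein Scap carries the membrane-bound precursors Srebf1 and Srebf2 to the Golgi for cleavage, and the freed factors bind sterol regulatory elements in the promoters of many of these genes. When sterol is plentiful, Insig1 and Insig2 hold Scap back. Growing leukemia cells draw on the same pathway for membranes and for the lipid tails of signaling proteins.

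The genes were expressed in these cells at very different levels. On the TPM scale, which is per transcript length, Acly (mean of 12 libraries 258 TPM), Lbr (254 TPM) and Scd2 (172 TPM) stood highest, and Ebp (82.7 TPM) and Srebf2 (75.9 TPM) followed. Among the lowest were Tm7sf2 (10.9 TPM), Lss (7.55 TPM) and Fdps (1.87 TPM). Fdps overlaps the annotated gene Gm43738 on the same strand and is identical to it over 493 bases. Reads in that stretch cannot be told apart, so the low level of Fdps is uncertain. Acly and Lbr did not differ beyond their spread, with WT means of 263 ± 6.99 and 263 ± 16.4 TPM (SD, n = 4). Of the 2 stearoyl-CoA desaturases named in the set, Scd2 thus carried nearly all of the signal.

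Several enzymes of the sterol branch stood higher in both immunodeficient hosts than in WT, most of them by less than the fold limit used in the study. Of the 29 genes tested, 0 were called in the comparison of Rag2-/- with WT at an adjusted p below 0.05 and a log2 fold change beyond 0.5, against 1.47% of all genes tested. At the adjusted p alone, 1 gene passed, Idi1, which rose, against 2.8% of all genes, of which 2.06% rose and 0.739% fell. At an unadjusted p below 0.05, 8 genes were higher and 2 lower, that is 10 of 29, where 12.3% of all genes were higher and 8.66% lower. In 7 genes all 4 Rag2-/- libraries lay above all 4 WT libraries (Hmgcs1, Mvk, Idi1, Sqle, Msmo1, Nsdhl and Hsd17b7), and in 2 they lay below (Tm7sf2 and Scd2), where the background was 10.2% and 6.72%. The median log2 fold change of the 29 genes was 0.06, beside 0.02 for all genes tested, and 18 of the 29 were above 0 (54.5% of all genes).

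NSG libraries also held higher levels of sterol enzymes than WT, with a wider spread. In the comparison of NSG with WT, 0 of the 29 genes were called under either rule, as were 0.0% of all genes, in limma. At an unadjusted p below 0.05, 11 were higher and 2 lower, against 4.93% and 4.23%. All 4 NSG libraries lay above all 4 WT libraries in 10 genes (Hmgcs1, Mvk, Idi1, Fdft1, Sqle, Cyp51, Msmo1, Nsdhl, Hsd17b7 and Stard4) and below in 1 (Scap), where the background was 2.21% and 2.38%. The median log2 fold change was 0.17, beside 0.005 for all genes, and 21 of 29 were above 0 (51.5% of all genes). Both comparisons use the same 4 WT libraries, so they are not independent of each other.

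**Figure D1:**
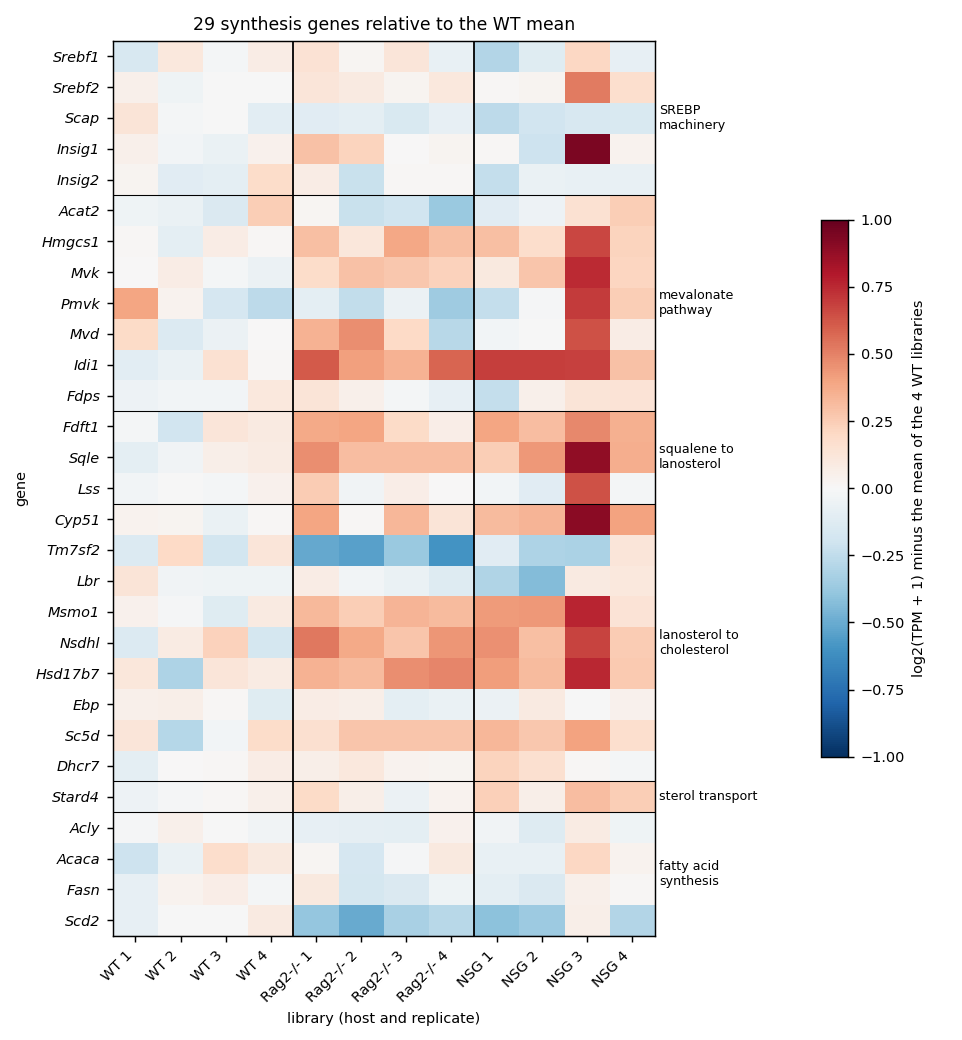
log2(TPM + 1) of the 29 tested genes (rows, by step of the pathway) in the 12 libraries (columns), with the mean of the 4 WT libraries subtracted from each row, red above and blue below that mean. Hmgcs1, Mvk, Idi1, Sqle, Msmo1, Nsdhl and Hsd17b7 are red in all 8 libraries of Rag2-/- and NSG, Scd2 is blue in 7 of these 8, and NSG replicate 3 is the highest of all 12 libraries in 18 of the 29 genes.

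One library has to be named before the single genes. NSG replicate 3 was the highest of the 12 libraries in 18 of the 29 genes, while no other library was the highest in more than 3. Without it, the median log2 fold change between NSG and WT dropped from 0.17 to 0.03, and the count above 0 from 21 to 16. NSG replicates 1, 2 and 4 still lay above WT in 10 genes, all of them among the 10 named above, against 4.59% of all genes, and below WT in 3 (Scap, Acly and Scd2), against 4.02%. In the comparison of Rag2-/- with WT, leaving this NSG library out of the shared fit, and thus out of its estimate of the spread, gave 8 genes at an adjusted p below 0.05 in place of 1: Hmgcs1, Mvk, Idi1, Sqle, Nsdhl and Hsd17b7 higher, and Tm7sf2 and Scd2 lower. The share of all genes that passed in that fit also went up, from 2.8% to 5.27% (3.58% higher and 1.68% lower).

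Within the mevalonate pathway, Idi1, the isomerase that makes dimethylallyl diphosphate, had the largest difference. Its level was 21.1, 21.7, 25.4 and 22.9 TPM in the 4 WT libraries, 35.2, 30.6, 29.2 and 34.5 TPM in Rag2-/- and 37.4, 37.3, 37.0 and 28.0 TPM in NSG. Every library of the immunodeficient hosts lay above every WT library, and Rag2-/- and NSG overlapped. Idi1 rose in Rag2-/- over WT with a log2 fold change of 0.49 (SE 0.10, adjusted p = 0.031 in limma), and the NSG difference was 0.59 (SE 0.10, adjusted p = 0.19). With single libraries left out the adjusted p of the Rag2-/- comparison ran from 0.0146 to 0.10, and it missed 0.05 without WT replicate 1, 2 or 4 or any 1 of the Rag2-/- libraries. Gm13502, a processed pseudogene on chromosome 2, is identical to Idi1 over 684 bases (22.6% of the Idi1 transcript) and was listed at 0.918 to 3.62 TPM. Gm35570, another processed pseudogene, is 97.7% identical over 681 bases and was listed at 0.0 TPM. Reads in these stretches cannot be assigned with certainty, so the level of Idi1 is uncertain.

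Hmgcs1, the synthase that makes HMG-CoA, was at 26.6, 24.6, 27.9 and 26.6 TPM in WT, 32.8, 28.6, 34.9 and 32.7 TPM in Rag2-/- and 32.8, 29.9, 42.6 and 31.0 TPM in NSG. The lowest library of either immunodeficient host was above the highest WT library. The log2 difference from WT was 0.28 in Rag2-/- (SE 0.10, adjusted p = 0.153) and 0.34 in NSG (SE 0.10, adjusted p = 0.414). Mvk, mevalonate kinase, gave 20.0, 21.1, 19.7 and 19.2 TPM in WT against 22.8, 24.7, 24.3 and 23.6 TPM in Rag2-/- and 21.5, 24.4, 34.2 and 23.4 TPM in NSG. Both immunodeficient hosts lay above WT without overlap, the lowest NSG library by little, and the Rag2-/- values fell inside the NSG range.

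In the other genes of the mevalonate pathway the hosts overlapped. Pmvk, phosphomevalonate kinase, had the largest log2 difference between Rag2-/- and NSG, -0.36 (SE 0.19, adjusted p = 0.458). It was at 39.5, 30.7, 26.4 and 24.8 TPM in WT, 27.8, 25.0, 28.6 and 23.1 TPM in Rag2-/- and 25.1, 29.6, 49.1 and 35.6 TPM in NSG. The 3 hosts overlapped, and without NSG replicate 3 the log2 difference shrank to -0.19. Acat2, the thiolase that starts the pathway, Mvd, the decarboxylase, and Fdps, farnesyl diphosphate synthase, overlapped in every comparison. Acat2 shares 445 bases with the abundant neighbor Tcp1 and 1477 bases with Acat3, so its level is uncertain.

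From squalene to lanosterol, Sqle, the squalene epoxidase and a rate-limiting enzyme of the branch, stood apart. It was at 18.3, 19.2, 20.5 and 20.9 TPM in WT, 27.5, 24.7, 24.6 and 24.6 TPM in Rag2-/- and 23.6, 26.9, 37.3 and 25.6 TPM in NSG. No library of the immunodeficient hosts reached down to the WT range. The log2 difference was 0.35 in Rag2-/- (SE 0.12, adjusted p = 0.12) and 0.48 in NSG (SE 0.12, adjusted p = 0.342). Without NSG replicate 3 the NSG value was 0.35. Fdft1, squalene synthase, was at 13.5 to 17.0 TPM in WT, 16.3 to 20.7 TPM in Rag2-/- and 19.5 to 22.1 TPM in NSG, apart from WT only in NSG. It overlaps Ctsb (160 to 210 TPM) on the opposite strand over 774 transcribed bases, and whether reads were counted by strand is not given in the sources used here. Lss, lanosterol synthase, stayed at 6.48 to 8.64 TPM in 11 libraries and reached 11.6 TPM in NSG replicate 3.

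**Figure D2:**
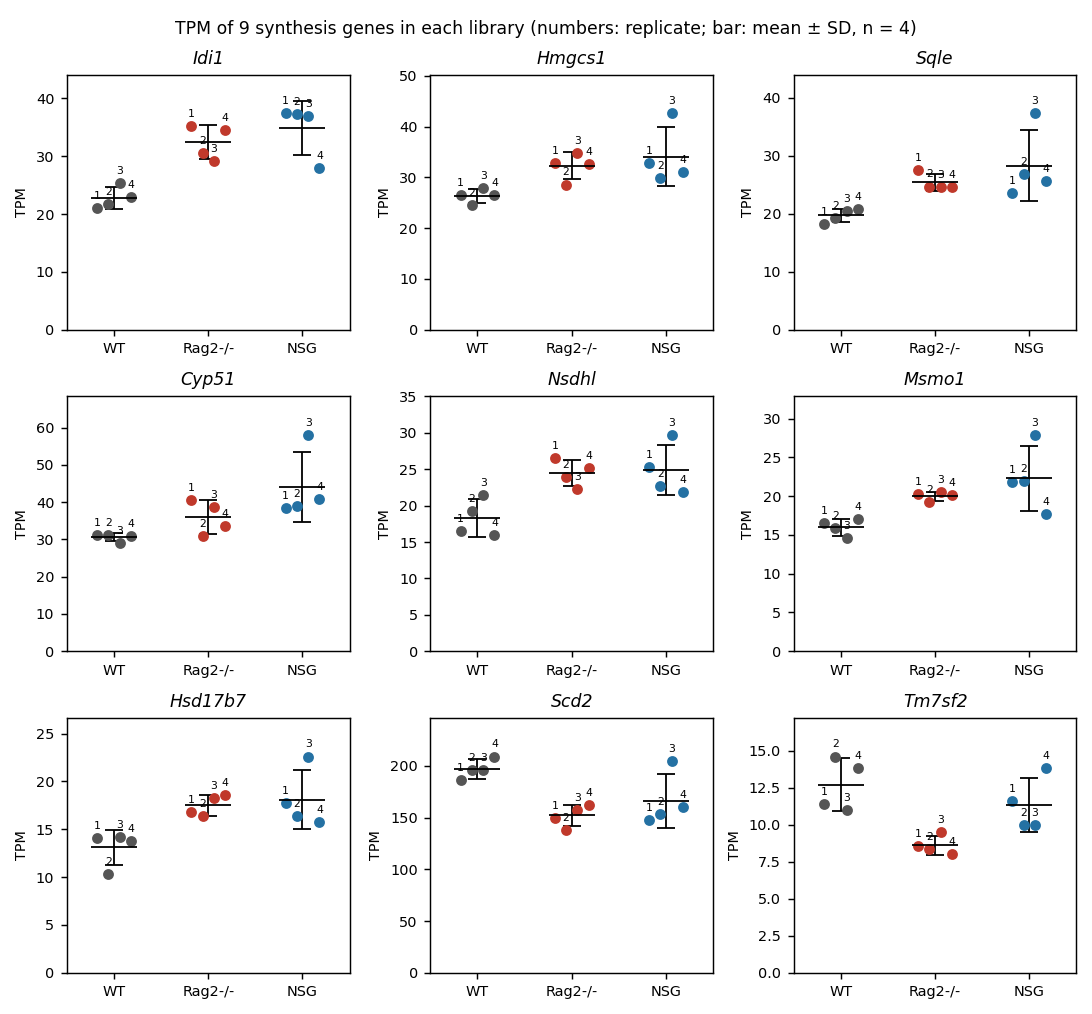
TPM (vertical axis, from 0) of 9 genes in the 4 WT, 4 Rag2-/- and 4 NSG libraries, with each point labelled by its replicate number and bars for the mean ± SD. Rag2-/- lies above WT without overlap in 6 of the 9 genes and below it in Scd2 and Tm7sf2, while NSG replicate 3 is the top NSG point in Hmgcs1, Sqle, Cyp51, Nsdhl, Msmo1, Hsd17b7 and Scd2.

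Between lanosterol and cholesterol, Msmo1, Nsdhl and Hsd17b7, which with Cyp51 are among the genes whose products remove methyl groups from the sterol ring, were higher in both hosts without overlap with WT. Hsd17b7 was at 14.1, 10.3, 14.2 and 13.8 TPM in WT, 16.8, 16.4, 18.3 and 18.6 TPM in Rag2-/- and 17.7, 16.4, 22.6 and 15.8 TPM in NSG. WT replicate 2 lay well under the other WT libraries, but the rest of the WT values were also under every value of the other hosts. The log2 difference was 0.41 in Rag2-/- (SE 0.12, adjusted p = 0.0924) and 0.44 in NSG (SE 0.12, adjusted p = 0.367). Nsdhl was at 16.5, 19.3, 21.5 and 16.0 TPM in WT, 26.6, 23.9, 22.3 and 25.1 TPM in Rag2-/- and 25.3, 22.7, 29.7 and 21.9 TPM in NSG. The gap between the nearest libraries was small, 21.5 against 21.9 TPM. Msmo1 was at 16.5, 15.9, 14.6 and 17.1 TPM in WT, 20.3, 19.2, 20.5 and 20.2 TPM in Rag2-/- and 21.8, 22.0, 27.9 and 17.7 TPM in NSG. Its Rag2-/- values were the tightest of the 3 genes, with an SD of 0.555 TPM.

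Cyp51, the demethylase that acts on lanosterol itself, was at 31.3, 31.2, 29.1 and 30.8 TPM in WT, 40.6, 30.9, 38.8 and 33.6 TPM in Rag2-/- and 38.3, 39.0, 58.0 and 40.8 TPM in NSG. All NSG libraries were above WT, while Rag2-/- replicate 2 fell within the WT range. The log2 difference from WT was 0.49 in NSG (SE 0.12, adjusted p = 0.342) and 0.22 in Rag2-/- (SE 0.12, adjusted p = 0.341), and Rag2-/- minus NSG was -0.27 (SE 0.12, adjusted p = 0.396). Cyp51 overlaps Akap9 on the opposite strand. Sc5d, a desaturase near the end of the pathway, differed from WT by 0.25 in Rag2-/- and 0.29 in NSG on the log2 scale, with overlap in both. Ebp, the sterol isomerase, and Dhcr7, which carries out a last reduction, lay close together in all hosts, Ebp at 82.5, 82.1 and 83.6 TPM and Dhcr7 at 35.1, 36.6 and 37.6 TPM in the means of WT, Rag2-/- and NSG. The 95% intervals of the log2 difference between Rag2-/- and WT ran from -0.14 to 0.12 for Ebp and from -0.09 to 0.20 for Dhcr7.

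Tm7sf2 went the other way. It encodes a sterol reductase, and Lbr, a receptor for nuclear lamin, can carry out the same reduction. Tm7sf2 was at 11.4, 14.6, 11.0 and 13.8 TPM in WT, 8.57, 8.34, 9.51 and 7.99 TPM in Rag2-/- and 11.6, 9.97, 9.95 and 13.8 TPM in NSG. The Rag2-/- libraries lay under all 8 others. The log2 difference was -0.51 from WT (SE 0.12, adjusted p = 0.0506) and -0.35 from NSG (SE 0.12, adjusted p = 0.25), neither under 0.05. Tm7sf2 overlaps Vps51 on the same strand, and reads in the shared stretch cannot be told apart. Lbr was at 254 to 287 TPM in WT and 240 to 277 TPM in Rag2-/-, and ranged more widely in NSG, from 194 to 282 TPM.

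**Figure D3:**
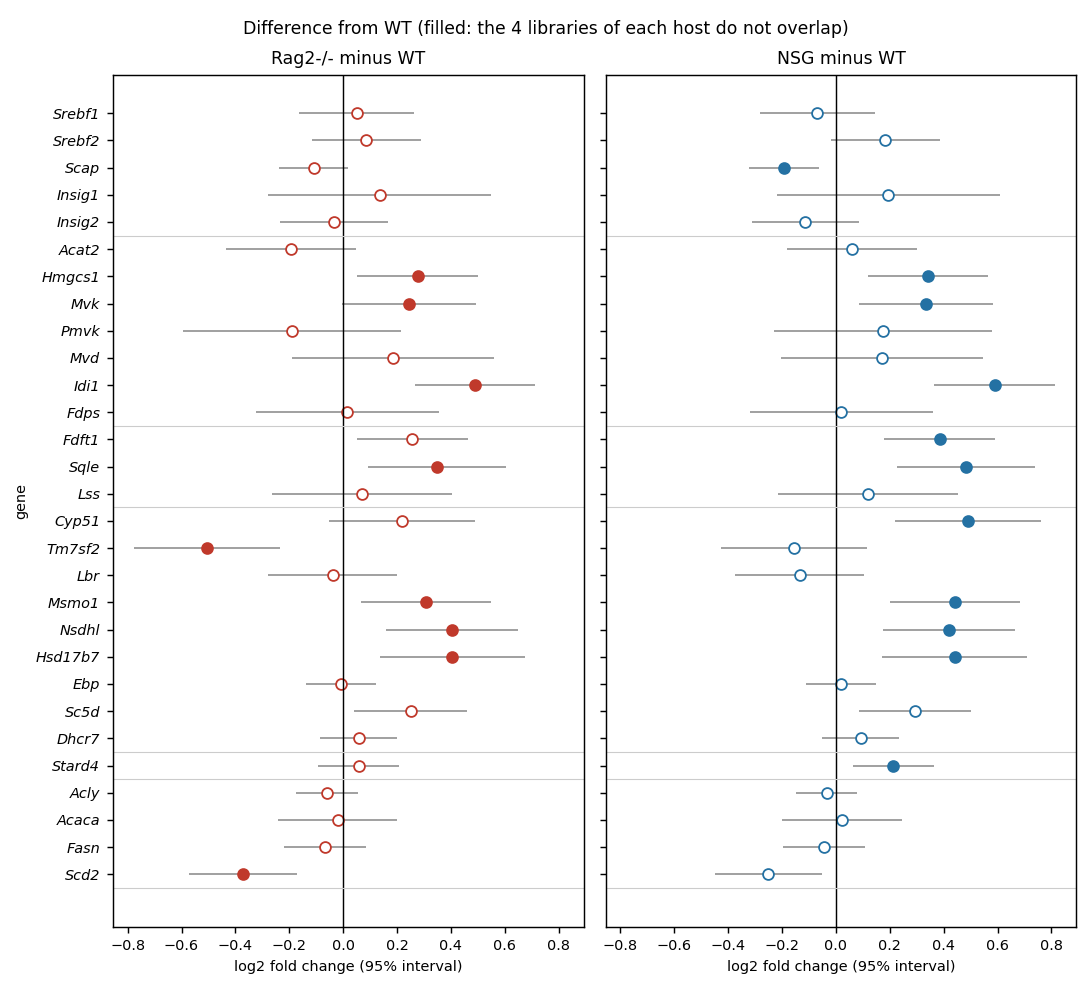
log2 fold change of the 29 genes with its 95% interval from limma (horizontal axis), Rag2-/- minus WT on the left and NSG minus WT on the right, genes in pathway order. Filled points mark genes whose 4 libraries do not overlap with the 4 WT libraries, 9 on the left and 11 on the right, and both panels share the WT libraries.

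The fatty acid genes of the set were near or under their WT levels. All 4 tested genes had log2 differences under 0 in Rag2-/- against WT, with a median of -0.06, and 0 passed the test. Scd2, a desaturase that makes monounsaturated fatty acids, was at 186, 196, 196 and 209 TPM in WT, 150, 138, 157 and 162 TPM in Rag2-/- and 148, 153, 205 and 160 TPM in NSG. All Rag2-/- libraries and 3 of the 4 NSG libraries lay under the WT range. The log2 difference was -0.37 in Rag2-/- (SE 0.09, adjusted p = 0.0506) and -0.25 in NSG (SE 0.09, adjusted p = 0.469), the latter -0.36 without NSG replicate 3. Acly, which releases acetyl-CoA from citrate, Acaca, acetyl-CoA carboxylase, and Fasn, fatty acid synthase, overlapped in all comparisons of 4 against 4 libraries, with log2 differences from WT between -0.07 and 0.02 (Acaca in NSG was at 0.02, and at -0.04 without NSG replicate 3). Acaca is 99.2% identical over 6117 bases to the processed pseudogene Gm5182, listed at 5.8 to 8.8 TPM, so its level is uncertain.

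Averaged over genes, the 19 tested enzymes from Acat2 to Dhcr7 had a mean log2(TPM + 1) of 4.58 ± 0.03 in WT, 4.72 ± 0.06 in Rag2-/- and 4.83 ± 0.16 in NSG (SD, n = 4), given as a description. The WT libraries ran from 4.54 to 4.61, the Rag2-/- libraries from 4.65 to 4.80 and the NSG libraries from 4.73 to 5.06, so neither host reached down into the WT range, and each overlapped the other. The 4 fatty acid genes gave 6.51 ± 0.07, 6.38 ± 0.08 and 6.43 ± 0.13 in WT, Rag2-/- and NSG, with overlapping ranges. The 5 genes of the SREBP machinery gave 5.43 ± 0.035, 5.46 ± 0.051 and 5.43 ± 0.199.

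**Figure D4:**
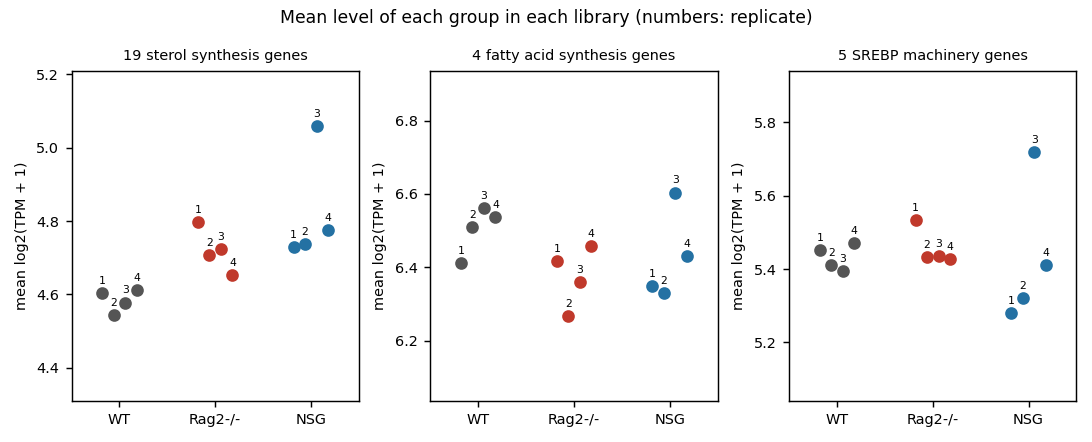
Mean log2(TPM + 1) (vertical axis, each panel spanning the same number of units) of the 19 sterol enzymes, the 4 tested fatty acid genes and the 5 genes of the SREBP machinery in each library, points labelled by replicate. In the sterol panel the 8 libraries of the immunodeficient hosts lie above the 4 WT libraries, while the other panels overlap, and NSG replicate 3 is the top point of each panel.

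None of the 5 regulators passed the test in limma, and Scap alone had a host without overlap. Srebf2, the SREBP most tied to sterol synthesis, was at 68.8 to 73.5 TPM in WT and 72.2 to 77.0 TPM in Rag2-/-, and at 71.5, 72.4, 102 and 79.6 TPM in NSG. Srebf1 overlapped in every comparison. Scap was at 39.5, 35.6, 36.0 and 33.4 TPM in WT, 33.3, 33.7, 32.4 and 34.0 TPM in Rag2-/- and 29.9, 31.5, 32.1 and 32.3 TPM in NSG. The NSG libraries lay under those of WT (log2 difference -0.19, SE 0.06, adjusted p = 0.422) and under those of Rag2-/-, where the background of genes higher in Rag2-/- without overlap was 4.34%. Insig1, an anchor of Scap and itself a target of SREBPs, was at 47.7, 45.1, 44.1 and 47.6 TPM in WT, 56.6, 53.9, 46.2 and 46.9 TPM in Rag2-/- and 46.5, 39.7, 89.3 and 47.3 TPM in NSG. NSG replicate 3 held the highest value by far, and the other NSG libraries overlapped with WT. Insig2 was at 14.6 to 19.8 TPM throughout.

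Stard4, a cytosolic sterol carrier, was at 40.0, 41.3, 41.8 and 43.1 TPM in WT, 47.6, 43.2, 39.8 and 42.7 TPM in Rag2-/- and 49.3, 43.2, 51.8 and 49.5 TPM in NSG. NSG lay above WT by a log2 difference of 0.21 (SE 0.07, adjusted p = 0.422), with the nearest libraries at 43.1 and 43.2 TPM, and Rag2-/- overlapped with both.

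In the direct comparison of Rag2-/- with NSG, 0 of the 29 genes were called under either rule, against 0.213% of all genes with the fold limit and 0.26% without it (0.233% higher and 0.0266% lower), in limma. At an unadjusted p below 0.05, 0 were higher and 4 lower in Rag2-/- (Acat2, Cyp51, Tm7sf2 and Stard4), against 7.72% and 4.84% of all genes. The hosts did not overlap in 1 gene that was higher, Scap, and 1 that was lower, Tm7sf2, where the background was 4.34% and 2.25%. The median log2 difference was -0.05, beside 0.01 for all genes, with 5 of 29 above 0 (53.4% of all genes). This direction rests on NSG replicate 3: without it the median was 0.01, and 17 of 29 were above 0. For Idi1 the 95% interval of the log2 difference ran from -0.32 to 0.12, and for Sqle from -0.39 to 0.12.

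Promoter sequences from RefSeq (GRCm38.p6, the same assembly as the mm10 build of the study) were at hand for 24 of the 30 genes, as 32 promoters, and not for Fdft1, Fdps, Scd1, Scd2, Sqle and Stard4. In the 250 bases before the annotated start, on either strand, the sterol regulatory element TCACNCCAC occurred in 1 of the 32 promoters, that of Hmgcs1, and in 1.05% of 32851 promoters of all genes. The shorter form TCACNCCA, which lies within it, was found in 3 of the 32 promoters, or 9.38% (Hmgcs1, Msmo1 and Srebf2). It was found in 3.67% of all promoters and 3.49% of those of tested genes. CCAAT, the letters read by NF-Y, a factor known to bind beside SREBPs, occurred in 65.6% of the members' promoters, against 33.8% of all promoters and 35.6% of those of tested genes. The GC box GGGCGG occurred in 75.0%, against 32.7% and 55.3%, and the E-box CACGTG in 15.6%, against 6.02% and 8.27%. These are matches of letters, not measured binding.

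Hmgcs1, Mvk, Nsdhl and Hsd17b7, from the 7 genes with all Rag2-/- libraries above WT, are shown with the bases before their start, on GRCm38.p6 and 5′ to 3′ on the strand of the gene, to show the bases before genes whose Rag2-/- and WT libraries did not overlap. Capitals mark CCAAT or its reverse complement ATTGG and, in Hmgcs1, the sterol regulatory element at 137 to 129 bases before the start. Bases inside an annotated exon were left out, and too few then remained of Idi1 and Msmo1.
Hmgcs1, chr13:119690101-119690350, plus strand: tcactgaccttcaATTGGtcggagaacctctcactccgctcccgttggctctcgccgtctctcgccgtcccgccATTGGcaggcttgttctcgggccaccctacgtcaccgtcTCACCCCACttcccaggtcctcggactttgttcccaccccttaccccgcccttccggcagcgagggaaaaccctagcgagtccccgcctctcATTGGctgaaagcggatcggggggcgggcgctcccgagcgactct
Mvk, chr5:114444061-114444268, plus strand: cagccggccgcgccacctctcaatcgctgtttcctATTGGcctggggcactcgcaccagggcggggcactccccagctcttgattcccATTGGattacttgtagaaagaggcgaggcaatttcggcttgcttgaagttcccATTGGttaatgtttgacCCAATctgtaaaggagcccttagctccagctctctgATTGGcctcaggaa
Nsdhl, chrX:72918412-72918520, plus strand: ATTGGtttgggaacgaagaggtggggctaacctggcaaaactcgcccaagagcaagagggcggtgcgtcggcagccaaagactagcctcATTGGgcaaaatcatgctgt
Hsd17b7, chr1:169969242-169969408, minus strand: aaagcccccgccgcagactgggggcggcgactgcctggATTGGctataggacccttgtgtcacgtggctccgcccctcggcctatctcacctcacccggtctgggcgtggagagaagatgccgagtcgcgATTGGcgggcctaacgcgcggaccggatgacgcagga
Mvk held 5 such boxes in the stretch shown, Hmgcs1 held 3, and Nsdhl and Hsd17b7 held 2 each.

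Other genes of the pathway were taken from a list of 78, of which 69 could be tested. In Rag2-/- against WT, 1 of the 69 was called, beside 1.47% of all genes, so the list as a whole held calls at about the background rate. This was Me1, the malic enzyme that supplies NADPH, at 7.67, 7.83, 10.2 and 10.1 TPM in WT, 16.6, 15.5, 15.4 and 13.4 TPM in Rag2-/- and 10.1, 10.8, 14.1 and 9.6 TPM in NSG (log2 fold change 0.71, SE 0.13, adjusted p = 0.0198). Its adjusted p ran up to 0.0743 with single libraries left out, and the call was lost on removing replicate 1 or 2 of WT, or replicate 2 or 3 of Rag2-/-. Hsd17b12, which acts in fatty acid elongation, also rose at the adjusted p alone (0.35, SE 0.08, adjusted p = 0.0426), and Npc2, which carries cholesterol out of lysosomes, fell by 0.31 on the log2 scale (SE 0.07, adjusted p = 0.0322). With single libraries left out these adjusted p ran up to 0.139 and 0.111, and both missed 0.05 without any 1 WT library or Rag2-/- replicate 1, 2 or 3, without a filter, without the variance trend and with the replicate block. Hsd17b12 missed it also without Rag2-/- replicate 4 or NSG replicate 2 and with median ratio scaling. In the other comparisons 0 of the 69 passed the test at either rule in limma. At an unadjusted p below 0.05, 11 were higher and 3 lower in Rag2-/- than in WT (12.3% and 8.66% of all genes), 9 were higher and 7 lower in Rag2-/- than in NSG (7.72% and 4.84%), and 8 were higher and 3 lower in NSG than in WT (4.93% and 4.23%). The 15 tested genes of the list in fatty acid synthesis and desaturation had 11 log2 differences above 0 in Rag2-/- against WT and a median of 0.07. Of all genes tested, 54.5% were above 0 in this comparison, with a median of 0.02.

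Genes of sterol efflux and esterification gave no call in any comparison. Apoe, an apolipoprotein, was at 32.5, 28.6, 23.5 and 22.6 TPM in Rag2-/- and 13.3, 13.3, 18.6 and 14.0 TPM in NSG, and at 17.1 to 25.8 TPM in WT. Rag2-/- exceeded NSG without overlap by a log2 difference of 0.81 (SE 0.15, adjusted p = 0.0523). Soat2, which esterifies cholesterol, differed by 0.86 between Rag2-/- and NSG (SE 0.25, adjusted p = 0.164) and by 0.76 between Rag2-/- and WT (adjusted p = 0.117). Abcg1, an exporter, was at 1.96 to 2.39 TPM in WT and 1.11 to 1.79 TPM in NSG (adjusted p = 0.598), and Abca1 was at most 0.353 TPM and was not tested. The LXR sterol sensors act on both exporters. Nr1h3, at 1.71 to 2.29 TPM in WT, differed from WT by -0.40 in NSG (adjusted p = 0.587). Nr1h2, named after its values were seen, was at 148 to 174 TPM in WT and 127 to 143 TPM in NSG, lower without overlap (log2 difference -0.23, adjusted p = 0.342). Fads2, a desaturase of polyunsaturated fatty acids, was at 23.0 to 25.6 TPM in WT and 30.7 to 50.3 TPM in NSG (log2 difference 0.55, SE 0.18, adjusted p = 0.422).

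Markers of other cells were read from lists in the same libraries, by their summed TPM. The 16 neutrophil markers, led by Chil3, summed to 1790 to 3610 TPM in WT and 2160 to 3520 TPM in NSG, but to 9010, 10100, 11300 and 2740 TPM in the Rag2-/- libraries. Rag2-/- replicate 4 lay within the WT range for this sum, which is mostly Chil3. S100a8, a calprotectin subunit, was at 107 to 429 TPM in Rag2-/- and 24.8 to 44.4 TPM in WT. S100a9 (148 to 701 against 21.6 to 31.2 TPM), Ngp, Camp, Ltf, Retnlg, Mmp8, Mmp9, Lcn2, Cxcr2 and Cd177 were also higher without overlap, replicate 4 included. Chil3, Ly6g, Fcnb, Padi4 and Csf3r overlapped between these hosts. Rag2-/- replicate 4 held Idi1 at 34.5 TPM, Hsd17b7 at 18.6 TPM and Nsdhl at 25.1 TPM, each above all WT libraries. There 9 of the 19 sterol enzymes lay above all WT libraries, against 12 to 13 in the other Rag2-/- libraries. The 12 macrophage markers, led by Cd68, summed to 164 to 192 TPM in WT, 235 to 258 TPM in Rag2-/- and 152 to 231 TPM in NSG. Cd68 was higher in Rag2-/- than in WT without overlap (113 to 146 against 70.3 to 91.6 TPM). C1qa, C1qb, C1qc and Axl were also higher without overlap, at far lower levels. Adgre1 (50.9 to 62.5 against 56.4 to 59.2 TPM), Vcam1, Cd5l, Mrc1, Siglec1, Mertk and Timd4 overlapped between these hosts. The part of these markers in the results was not tested. The RNA came from GFP-positive cells, a selection against host cells. In bulk RNA, a changed share of cells and a changed level per cell cannot be told apart.

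The other lists gave these sums. T and NK cell markers summed to 2.4 to 10.5 TPM, with Trac and Cd3e at 0 and mostly Nkg7. Of the NK genes, Ncr1 was at 0.108 to 0.531 TPM in Rag2-/- and listed at 0 in every WT and NSG library, and Gzma was at 0.624 to 2.39 TPM in Rag2-/-, 0 in WT and 0 to 1.67 TPM in NSG. Ncr1 and Gzma were thus higher in Rag2-/- than in WT, at a very low level. Nkg7 went the other way, at 1.79 to 5.19 TPM in Rag2-/- and 5.2 to 6.71 TPM in WT. Klrb1c, Prf1 and Klrd1 overlapped between Rag2-/- and WT. The part of these genes in the results was not tested. Erythroid markers summed to 4.21 to 13.6 TPM. B and plasma cell markers summed to 165 to 287 TPM, mostly Ighm, with Ms4a1 at 0. Stromal and adipocyte markers summed to 105 to 182 TPM, mostly Pecam1, with Plin1 and Adipoq at 0. Proliferation genes summed to 3750 to 4050 TPM in WT, 3410 to 4030 TPM in Rag2-/- and 3860 to 3930 TPM in NSG. Among them, Mki67 was higher in Rag2-/- than in WT without overlap (256 to 338 against 204 to 255 TPM). Mcm5 was lower (299 to 345 against 366 to 395 TPM), and the rest overlapped between these hosts. The leukemia and myeloid progenitor list, led by Elane, summed to 12000 to 13400 TPM in WT, 10800 to 12900 TPM in Rag2-/- and 10800 to 15700 TPM in NSG. Mecom alone was under 1 TPM in every library. Single genes of this list differed between Rag2-/- and WT without overlap, where the background was 10.2% higher and 6.72% lower. Mpo (70.1 to 287 against 508 to 593 TPM) and Cebpa (203 to 231 against 276 to 302 TPM) were lower. Spi1 (596 to 654 against 548 to 582 TPM) and Hoxa10 (129 to 143 against 123 to 128 TPM) were higher. Meis1 was higher too, with the nearest libraries close together (55.9 to 63.3 against 54.2 to 55.8 TPM), and the rest overlapped. The part of these genes in the results was not tested. NSG replicate 3 had the lowest sum of the 4 NSG libraries in the macrophage, lymphoid, stromal and progenitor lists. In the proliferation list the NSG sums were nearly equal, at 3860 TPM in replicate 3 and 3870 to 3930 TPM in the other NSG libraries. The 13 mitochondrially encoded genes were listed at 0 in every library, so RNA quality could not be read from them.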

How the data were processed

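RNA was sequenced from GFP-positive MLL-AF9 cells of 12 mice, 4 per host, and the labels put every library in its group. Alignment by the authors used HISAT2 and the mm10 build, and their raw counts were turned into the deposited TPM values. TPM are scaled to gene length and to the total of each library, so a rise in abundant genes lowers the rest. The counting tool, its annotation and its strand setting are not given in the sources used here. Gene IDs were matched to GENCODE symbols.

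Genes that averaged 1 TPM or more across all libraries (15026 of 55401) were tested on log2(TPM + 1) with limma 3.58.1 in R 4.3.3 (empirical Bayes with trend, two-sided). All 12 libraries entered 1 fit, and p-values were adjusted by Benjamini-Hochberg over all genes tested. A gene was called at an adjusted p below 0.05 and a log2 fold change beyond 0.5, as in the study. Fold changes on this scale understate the change of low genes. The fit was tested on simulated data. Alternatives were a pseudocount of 0.1 TPM, other filters, quantile and median ratio scaling, no variance trend, the 8 libraries of a comparison alone, a replicate block and each library left out. Near-identical copies of at least 95% identity were sought with blastn 2.17.0.

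The genes and lists were chosen with earlier results of these data known. All 30 genes could be named. Of the other pathway genes, a few set by name, among them Abca1 and Abcg1, were to be given, with any at an adjusted p below 0.05 or among the 3 largest fold changes of a comparison, and some of these are not reported here. The 3 largest fold changes among the 30 genes in each comparison were given in every library, and other genes with them after their values were seen. Marker lists covered neutrophils, macrophages, B and plasma cells, T and NK cells, erythroid cells, stromal cells and adipocytes, progenitors, proliferation and mitochondrially encoded genes. 1 listed pathway gene was not matched by its symbol. No 2 libraries were alike enough to be 1 library deposited more than once (pairwise correlations 0.9576 to 0.9812).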

Additional observations from a re-analysis of the deposited data

Results flagged for a closer look

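In 12 of 90 groups of 4 libraries, 1 library lay far from the other 3, its gap to the nearest taking up a larger share of the group's range than Dixon's 95% critical value allows. Chance alone flags about 1 in 20 groups, that is 4.5 of 90. NSG replicate 3 was the high library in Insig1 (89.3 TPM against 39.7 to 47.3, share 0.846), Mvd (42.7 against 26.6 to 28.5, share 0.884), Lss (11.6 against 6.48 to 6.99, share 0.901) and Cyp51 (58.0 against 38.3 to 40.8, share 0.87), each next to the other NSG libraries. All of these are genes of the sterol branch or its regulator, and in each the other NSG libraries lay close together.

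Among the other NSG libraries, replicate 4 was low in Idi1 (28.0 TPM against 37.0 to 37.4, share 0.96) and replicate 1 was low in Insig2 (14.6 against 16.4 to 16.5, share 0.959). In Rag2-/-, replicate 1 was high in Sqle (27.5 TPM against 24.6 to 24.7, share 0.937) and low in Sc5d (27.7 against 30.1 to 30.2, share 0.959), and replicate 4 was high in Acly (271 against 245 to 249, share 0.853). In WT, replicate 1 was high in Lbr (287 TPM against 254 to 256, share 0.933), replicate 2 low in Hsd17b7 (10.3 against 13.8 to 14.2, share 0.895) and replicate 4 high in Fdps (2.06 against 1.74 to 1.79, share 0.837). No cause was tested for any of these.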

How the results depend on the processing

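The count of synthesis genes at an adjusted p below 0.05 in Rag2-/- against WT, 1 in the report, depended most on the processing. It was 3 with at least 1 TPM required in every library, 3 with quantile normalization, 3 with median ratio scaling, 7 in the 8 libraries of the comparison alone, 0 without a filter, and 0 to 8 with single libraries left out, 8 without NSG replicate 3 and 0 without WT replicate 1, 2 or 4 or any 1 Rag2-/- library. The share of all genes that passed moved as well, from 2.8% to 4.48%, 2.95%, 2.93%, 6.62% and 0.654% under the first 5 of these settings, and to between 0.359% and 5.27% with single libraries left out. With the fold limit as well, the count of 0 became 1 with a pseudocount of 0.1 TPM, at least 1 TPM in every library, quantile normalization, median ratio scaling or the 8 libraries alone, and was 0 to 1 with single libraries left out (1 without WT replicate 3, NSG replicate 3 or NSG replicate 4). Of the other pathway genes, the count called in Rag2-/- against WT was 2 in the 8 libraries alone and 0 to 1 with single libraries left out, and in Rag2-/- against NSG it was 1 with at least 1 TPM in every library and 0 to 1 with single libraries left out. The median log2 fold change of NSG against WT ran from 0.0266 to 0.2284 with single libraries left out, lowest without NSG replicate 3. The median of Rag2-/- against NSG turned from -0.05 to 0.01 without that library, and under the alternatives run no other median over the 29 genes turned, nor did any fold change of these genes with an unadjusted p below 0.05. The causes were not tested, and the unknown read depth limits what can be said of the lowest genes, Fdps and Scd1.

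Replicate numbers did not pair the libraries: deviations from the host means correlated at -0.091 to 0.032 between libraries with the same number and at -0.12 to 0.128 between others. With the replicate block, 0 synthesis genes passed the adjusted p in Rag2-/- against WT, where 1.61% of all genes did.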
